A study of Rattus norvegicus with 22 samples.

Results

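Of 99896 open chromatin regions mapped in prefrontal cortex from male Sprague-Dawley rats, 1855 were called both in the control library and in the library labelled WIN, and in neither of the libraries from cocaine-treated rats. ATAC sequencing, in which a transposase inserts adapters where nuclear DNA is accessible, was deposited as 1 library for each of 4 treatments, namely control, WIN, cocaine and WIN+cocaine, where WIN is a synthetic agonist of cannabinoid receptors. The series title places the cannabinoid exposure in adolescence. The sources used here do not give doses, ages, the time of sampling or the number of animals behind each ATAC library. The authors' active regions merge overlapping peak intervals of the 4 libraries, and a region entered the set if it held at least 1 control and 1 WIN interval and no interval of cocaine or WIN+cocaine. The regions were chosen by these peak calls, so their presence in one pair and absence in the other is a description and not a finding. With 1 library for each treatment there is no replicate check and no p-value, and a missing call means that no peak passed the caller's threshold, not that the DNA was closed. Fewer cells with a region open and less accessibility in each cell cannot be told apart in such bulk tissue.

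Accessible regions of cortical chromatin are mostly promoters and enhancers, short stretches where bound transcription factors displace nucleosomes. Promoters tend to be open in many cell types, whereas distal enhancers are often specific to 1 type of neuron or glia and can open or close with neuronal activity. Cannabinoid agonists act in cortex mainly through the CB1 receptor on nerve terminals, and cocaine raises synaptic dopamine by blocking its transporter. The positions below are those of the deposited tracks, counted from 1. Since the sources used here name no genome build for them, no gene, exon or sequence is assigned to them, and the tissue label was not checked against marker genes.

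Control had 69639 called intervals and WIN 70942, while cocaine had 76590 and WIN+cocaine 76884. Each interval has 1 summit score, a whole number on the authors' scale, and how this scale was set between libraries is not known, so a difference in score between libraries is one on the deposited scale and may not be one in accessibility. The median score was 37 in control and WIN and 39 in both cocaine-treated libraries, and the lowest score was 14 in all 4. Read depth is unknown, because the tracks hold no read counts. The 2 libraries that lack the 1855 regions are thus the 2 with more called intervals, and the part of interval number in each count below was examined only by equalising it.

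The 1855 regions made up 1.86% of the active regions (95% Wilson interval 1.78% to 1.94%, which covers counting error only). The regions of the opposite kind, called in cocaine and WIN+cocaine and in neither other library, numbered 4054, or 4.06%. The 4 pairs that mix a cocaine-treated with another library gave 1850 regions for control and cocaine (1.85%), 2038 for control and WIN+cocaine (2.04%), 2236 for WIN and cocaine (2.24%) and 2041 for WIN and WIN+cocaine (2.04%). By number, the regions of control and WIN alone therefore lay at the level of the mixed pairs, close to the lowest of them. When every library was reduced to its 69639 highest-scoring intervals, control and WIN alone held 2884 regions, more than any mixed pair (1835 to 2112), and cocaine and WIN+cocaine alone held 2761. When only calls with a score of 30 or more were counted in every library, the order was the opposite. This limit did not equalise interval numbers. It dropped 33.2% of the control and 33.0% of the WIN intervals, but 29.8% of the cocaine and 29.9% of the WIN+cocaine intervals. Control and WIN alone then held 1037 regions, fewer than each mixed pair (1153 to 1571) and than cocaine and WIN+cocaine (3508). Of the 1037, 349 were among the original 1855, and the others held a cocaine-treated interval with a score under 30. The rank of control and WIN alone among the pairs thus depended on how calls were counted. The ratio of the cocaine-treated pair's own regions to those of control and WIN was 2.19 with all intervals and 0.957 with equal numbers, so its direction turned with this choice.

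**Figure D1:**
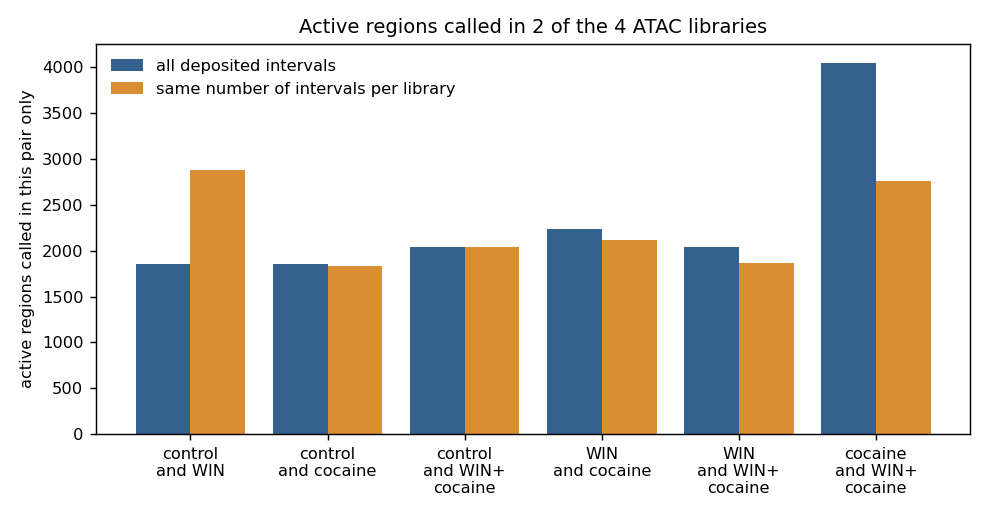
Active regions called in exactly 2 of the 4 ATAC libraries, for each of the 6 pairs; the y axis counts regions from 0, blue bars use all deposited intervals and orange bars the 69639 highest-scoring intervals of each library. With all intervals the control and WIN bar (1855) stands level with the mixed pairs, and with equal numbers it is the tallest (2884).

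Equal numbers changed which regions were counted. Of the 2884 regions, 1753 were among the original 1855, and 1131 were added. Of the added regions, 427 held a cocaine interval, 430 a WIN+cocaine interval and 274 both, each of which had fallen under the limit that equal numbers set in those libraries; the lowest scores kept were 14 (control), 18 (WIN) and 22 (both cocaine-treated libraries).

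Absence from one cocaine-treated library often went with absence from the other. Control and WIN shared 56763 regions, of which 3.27% were called in neither cocaine-treated library. Of these shared regions, 4362 (7.68%) lacked a cocaine call and 4519 (7.96%) lacked a WIN+cocaine call. Among those without a cocaine call 42.5% also lacked WIN+cocaine, against 5.08% of those with a cocaine call. The corresponding share in neither other library was 6.48% for the cocaine and WIN+cocaine pair, and 3.17%, 3.49%, 3.77% and 3.46% for control and cocaine, control and WIN+cocaine, WIN and cocaine, and WIN and WIN+cocaine. Taken the other way, 41.0% of those without a WIN+cocaine call also lacked cocaine. Joint absence was frequent in the mixed pairs too. Among their regions without a call in the first of the 2 other libraries (control or WIN), 30.4% to 32.9% also lacked the second (cocaine or WIN+cocaine), and among those without the second, 41.0% to 45.6% also lacked the first. For cocaine and WIN+cocaine, 46.5% of the regions without a control call also lacked WIN, and 49.4% of those without a WIN call also lacked control.

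Most of the 1855 regions were weak, meaning low in score, in the libraries that called them. The control score ran from 15 to 98 with a median of 25 (quartiles 21 and 30), and the WIN score from 15 to 90 with a median of 25 (quartiles 21 and 31). Regions called in all 4 libraries had medians of 46 in both control and WIN. A score of 25 exceeded 18.9% of all control intervals and 18.8% of all WIN intervals. Only 191 of the 1855 lay above the control library's own median and 211 above that of WIN, and 1204 scored 30 or less in both libraries. Regions called in control, WIN and 1 cocaine-treated library were nearly as weak, with control medians of 27 for both kinds. The mixed pairs were as weak as the set, with medians of 24 or 25 in control and WIN and 26 in the cocaine-treated library, so low scores were common to regions called in 2 libraries.

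On the deposited scale the 1855 regions had similar scores in control and WIN. The control score was higher in 856, the WIN score in 875, and 124 were equal. The median ratio of control to WIN was 1.00, with 90% of regions between 0.68 (5th percentile) and 1.44 (95th percentile). Across these regions, which share 2 libraries and a common lower limit of calling, the correlation of the scores was 0.702 (Pearson) and 0.550 (Spearman). The mixed pairs had 0.609 to 0.672 (Pearson) and 0.452 to 0.527 (Spearman), and the opposite kind 0.772 and 0.579. In the set the ratio of control to WIN ran from 0.381 to 3.83. Control was 1.5-fold higher in 69 regions and WIN in 82. The highest control score was not in the region with the ratio of 3.83. It was at chr10:65106698-65106942, a region of 245 bp with 98 in control and 36 in WIN. Its nearest cocaine interval lay 25960 bp away and its nearest WIN+cocaine interval 54904 bp away. That region ranked 6916 among the control intervals but 36279 among those of WIN.

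**Figure D2:**
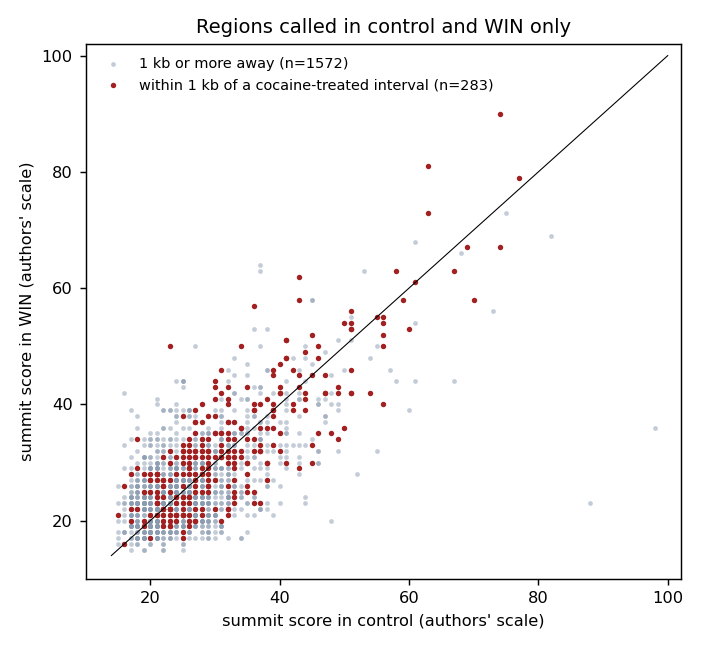
Summit score in control (x axis) against WIN (y axis), both on the authors' scale, for the 1855 regions called only in these libraries; each point is a region, the line marks equal scores, and red marks the 283 regions within 1 kb of an interval of a cocaine-treated library. Points crowd near 25 in both libraries and red points are frequent among the highest.

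The regions were also narrow. Their median width was 321 bp (quartiles 280 and 381 bp, range 202 to 831 bp), against 484 bp for regions of all 4 libraries, and together they covered 636161 bp. The pair of cocaine and WIN+cocaine gave narrower regions of its own, with a median of 299 bp, and the mixed pairs lay between, at 303 to 310 bp. The control intervals in the set had a median width of 261 bp and the WIN intervals 262 bp, so neither library alone set the width. The widest region, chr10:55710245-55711075, held a control summit of 40 and a WIN summit of 43 at 464 bp from each other.

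Control and WIN placed their summits less exactly in these regions than cocaine and WIN+cocaine did in theirs, in a comparison not matched for score. The lower score was 30 or more in 18.8% of the set and in 25.7% of the opposite kind. The median distance between the summits was 48 bp in the set (quartiles 16 and 96 bp), and in 1051 of 1855 regions (56.7%) it was at most 50 bp. The distance was 32 bp at the median in the opposite kind of region, where 69.1% were within 50 bp, and 32 bp in regions of all 4 libraries, where control and WIN summits were within 50 bp in 64.9%. In the mixed pairs the share ran from 58.9% to 61.7%. At matched lower scores the set and the regions of all 4 libraries did not keep this order: the medians were 64 and 59 bp at 14 to 19, 32 and 48 bp at 20 to 24, 32 bp in both at 25 to 29, 30 to 39 and 50 to 59, 64 and 32 bp at 40 to 49, and 48 and 32 bp at 60 to 79. Between 98.6% and 99.0% of the summits of each library sat on multiples of 16 bp, so these medians move in coarse steps. The control and WIN intervals shared at least 50% of the longer one's length in 1649 of the 1855 regions (88.9%), against 90.3% to 93.8% in the mixed pairs and 96.9% in the opposite kind.

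The share of control and WIN regions that lacked both cocaine-treated calls was lower the stronger the region. When regions were ranked by the lower of their control and WIN scores, 406 of 2532 regions (16.03%) at scores of 14 to 19 were called in neither cocaine-treated library. The share was 9.17% at 20 to 24, 4.37% at 25 to 29, 2.14% at 30 to 39, 0.880% at 40 to 49, 0.459% at 50 to 59 and 0.219% at 60 to 79. Of the 2872 regions at 80 to 99 none was missing from both (Wilson upper bound 0.134%), and none of the 5750 at 100 or more (upper bound 0.0668%). Every region of control and WIN whose lower score was 100 or more was called in all 4 libraries. Loss from a single cocaine-treated library fell in the same way, from 13.7% (WIN+cocaine alone lacking) and 14.3% (cocaine alone lacking) at 14 to 19 to 0.219% and 0.201% at 60 to 79. The fall with score was common to all pairs. In the mixed pairs the share called in neither other library was 15.1% to 18.0% at 14 to 19, 0.0510% to 0.120% at 60 to 79 and 0 at 100 or more. For cocaine and WIN+cocaine it was 26.8%, 0.580% and 0.102% at the same scores.

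**Figure D3:**
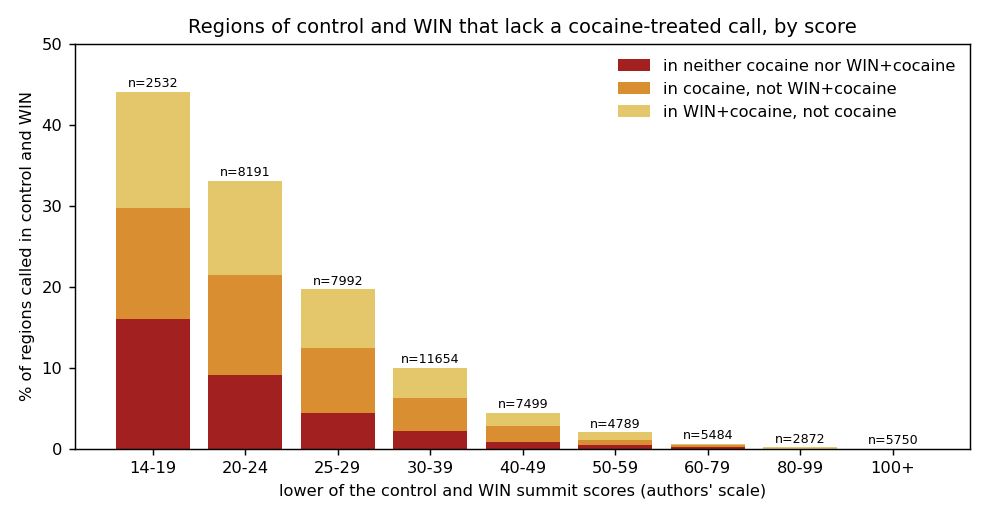
Share of the regions called in control and WIN (y axis, percent) that lack a call in one or both cocaine-treated libraries, by the lower of their 2 scores on the authors' scale (x axis); red is the share in neither, orange and yellow the shares lacking 1 library, and n is the number of regions. The red share falls from 16.03% at 14 to 19 to 0 at 80 and above.

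With all intervals kept, the set held more than each mixed pair at the limits of 50 and 60, but not at lower limits. With both scores at 40 or more it held 100, against 104 for WIN and cocaine and 64 to 73 for the other mixed pairs. At 30 or more it held 349, against 419 for WIN and cocaine and 278 to 329 for the others. Both scores were 50 or more in 34 of the 1855 regions, which is 0.18% of the 18895 regions of control and WIN at that strength. The mixed pairs had 16 (0.0798%), 14 (0.0697%), 27 (0.135%) and 20 (0.101%), in the order control and cocaine, control and WIN+cocaine, WIN and cocaine, WIN and WIN+cocaine. The cocaine and WIN+cocaine pair had 111 (0.491%). At 60 or more the counts were 12 for control and WIN, 3, 4, 7 and 5 for the mixed pairs in the same order, and 55 for cocaine and WIN+cocaine. Scores of 20 to 24 showed the reverse order for control and WIN, whose 9.17% was below every mixed pair (10.4% to 11.3%). These counts come from single libraries, and whether they differ between treatments was not tested.

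Most, but not all, of the strong regions of the set lay near open regions shared by all 4 libraries. Of the 34 regions with both scores at 50 or more, 22 (64.7%, Wilson interval 47.9% to 78.5%) had a region of all 4 libraries within 1 kb. The share rose with the score, from 2.85% at 14 to 24 through 9.17%, 21.3% and 37.9% at 25 to 29, 30 to 39 and 40 to 49. It rose in each mixed pair too, from 1.97% to 2.54% at 14 to 24 to 19.5% to 34.5% at 40 to 49. Mixed pairs at 50 or more had 22.2% to 45.0%, each over 14 to 27 regions. The highest of these, WIN and WIN+cocaine, had a Wilson interval of 25.8% to 65.8%, which overlaps that of the set. The strong regions of cocaine and WIN+cocaine alone were less often next to one, at 16.2% (18 of 111, Wilson interval 10.5% to 24.2%). Among regions of all 4 libraries with both scores at 50 or more, 7.25% had another such region within 1 kb. Over the whole set 165 of 1855 regions (8.89%) had a 4-library neighbour within 1 kb, against 4.88% in the opposite kind and 5.54% to 7.25% in the mixed pairs.

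**Figure D4:**
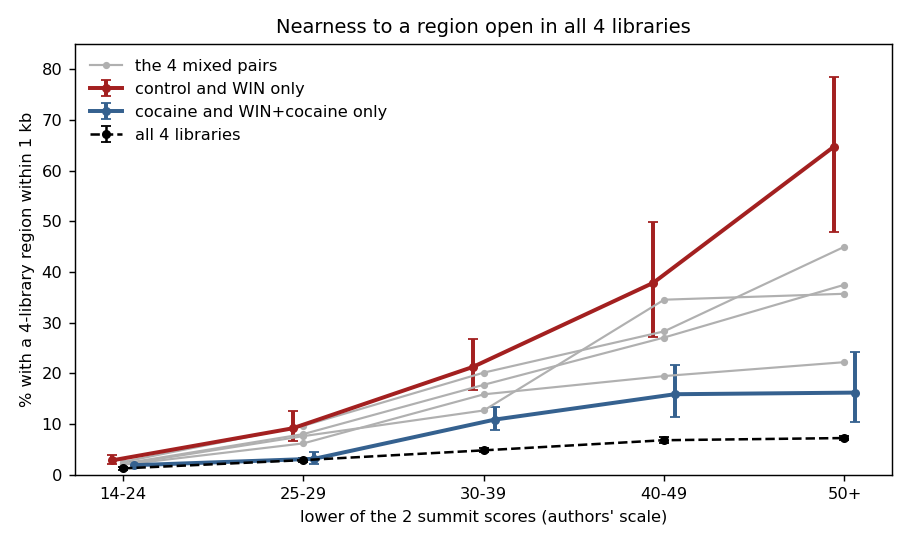
Percentage of regions with a region of all 4 libraries within 1 kb (y axis) by the lower of the pair's 2 scores (x axis, authors' scale; control and WIN scores for the dashed line); bars are 95% Wilson intervals, which cover counting error only, and grey lines are the 4 mixed pairs. The red line of control and WIN alone reaches 64.7% at 50 and above, where the blue line of cocaine and WIN+cocaine alone stands at 16.2%.

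The shared neighbours of the 165 regions were called in every library by definition, so only their scores are described here. Their median scores were 51 in control and 56 in WIN, with 63 in cocaine and 59 in WIN+cocaine, beside 46, 46, 51 and 51 for all regions of 4 libraries. The median gap between the region and its neighbour was 371 bp. For the 198 such regions of the opposite kind, the neighbours scored 50, 47, 51 and 54 in the same order, and the median gap was 552 bp. In the mixed pairs the neighbours' medians ran from 45 to 51 in control, 45 to 50 in WIN, 50.5 to 53 in cocaine and 49 to 55.5 in WIN+cocaine. Their median gaps were 429 to 473 bp.

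The 12 regions with the highest lower score are part of the 34 with both scores at 50 or more, so they add no separate support. At that strength 91.2% of the set had a region of all 4 libraries within 10 kb. The share was 85.7% to 100% in the mixed pairs and 58.6% in the opposite kind. All 12 lay within 10 kb of a region of all 4 libraries, 8 of them within 1 kb, and the distance ran from 54 to 3479 bp with a median of 469 bp. The first, chr13:25967095-25967563, scored 77 in control and 79 in WIN. The region of all 4 libraries 210 bp from it, chr13:25966042-25966884, scored 386 in control and 380 in WIN, with 455 in cocaine and 402 in WIN+cocaine. Among regions of all 4 libraries whose lower control and WIN score was 60 to 79, the median score was 79 in cocaine and 80 in WIN+cocaine, and the lowest was 28 in each. These scores come only from regions that had both cocaine-treated calls. Of the 5484 regions of control and WIN at that strength, 99.4% were called in all 4 libraries. Why the first region of the set lacked both calls was not tested.

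The other 11 regions scored between 61 and 90. On chromosome 15, chr15:67554732-67555307 had 74 in control and 90 in WIN, the highest WIN score in the set, with its summits 224 bp from each other. Its neighbour 978 bp away scored 230, 224, 233 and 264 in control, WIN, cocaine and WIN+cocaine. On chromosome 8, chr8:85841124-85841386 had 74 and 67, and lay 201 bp from a shared region of 991 bp that scored 346, 334, 398 and 391. On chromosome 9, chr9:29526980-29527433 had 63 and 81 with both summits at the same position, 228 bp from a shared region with 260, 287, 335 and 301. Of the 12 shared neighbours, that of the first region had the highest scores in all 4 libraries.

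Further regions of the first 12 sat close beside broad shared regions. The region chr16:59565088-59565802, 715 bp wide, had 67 in control and 63 in WIN and lay 54 bp from a shared region of 947 bp with 201, 238, 224 and 215. On chromosome 1, chr1:59383787-59384085 had 61 in both, 115 bp from a shared region of 1292 bp with 169, 189, 189 and 173. On chromosome 6, chr6:3807685-3808015 had 69 and 67, 710 bp from one with 70, 75, 76 and 64.

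Chromosome 17 held 3 of the first 12 within 1723896 bp. The region chr17:43919270-43919574 had 75 in control and 73 in WIN with the summits at the same position, and of the 12 it was the farthest from any cocaine-treated interval, at 3479 bp. The shared region there was of similar height in all libraries, at 70, 59, 59 and 56. The region chr17:44646924-44647192 had 68 and 66, with a shared region 1413 bp away at 208, 248, 222 and 225. The region chr17:45642618-45643165 had 63 and 73. Its shared neighbour, 187 bp away, scored 93 in control and 93 in WIN, and 50 in cocaine and 50 in WIN+cocaine on the deposited scale. In the stretch from the first to the last of these 3, 88 active regions were mapped, of which 64 were called in all 4 libraries, 4 in control and WIN alone and 1 in cocaine and WIN+cocaine alone.

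The remaining 2 of the 12 lay on chromosome 2, and after chr17:43919270-43919574 they were the farthest from a cocaine-treated interval. The region chr2:5584668-5585030 had 82 in control and 69 in WIN, 1769 bp from the nearest cocaine-treated interval; the shared region 1653 bp away had 117, 146, 136 and 87. The region chr2:198721227-198721600 had 61 and 68, 1716 bp from the nearest cocaine-treated interval, and a shared region 1700 bp away had 138, 105, 131 and 145.

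Away from cocaine-treated intervals the regions of the set were weaker. In 709 of the 1855 (38.2%) the nearest interval of cocaine or WIN+cocaine lay at least 10 kb away, and their median score was 23 in control and 23 in WIN. That number was at the level of the mixed pairs. An interval of an absent library lay within 10 kb in 61.8% of the set, 60.4% to 63.1% of the mixed pairs and 57.9% of the opposite kind. Only 40 of these 709 had both scores at 30 or more, and 3 had both at 50 or more. These 3 were singled out after their values were seen. At chr12:51741894-51742449 both libraries scored 51 with the summits at the same position, 34198 bp from the nearest cocaine-treated interval. The other two lay 114 bp from each other on chromosome 19. Of them, chr19:5835223-5835597 had 55 in control and 50 in WIN, and chr19:5835712-5836086 had 56 and 50. Both were 375 bp wide, and their nearest cocaine-treated interval was a WIN+cocaine interval of score 25, at 15889 and 15400 bp.

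At the edge of the rule, 17 regions (0.916%) lay within 100 bp of a cocaine-treated interval and 283 (15.3%) within 1000 bp. In the mixed pairs 0.581% to 1.18% lay within 100 bp of an interval of an absent library, and 11.5% to 13.7% within 1000 bp. The opposite kind had 0.543% and 8.78%. The 283 were stronger than the other 1572, with medians of 30 in control and 31 in WIN against 24 and 24. The closest was chr2:239537757-239538099, with 15 in control and 21 in WIN, 1 bp from a WIN+cocaine interval of score 19. Next came chr1:216244263-216244536, with 29 in both libraries, 16 bp from a cocaine interval of 26, and chr19:10077169-10077535, with 34 and 31, 19 bp from a WIN+cocaine interval of 26 and 21 bp from a cocaine interval of 33. Each of these was in the set because no cocaine-treated interval overlapped it, however close one lay. For the region on chromosome 2 the nearest cocaine interval was 13648 bp away. For that on chromosome 1 the nearest WIN+cocaine interval was 6418 bp away.

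Just outside the rule were 181 regions called in control and WIN and, at a score of 18 or less, in 1 cocaine-treated library; 18 is the 1st percentile of scores in both. The strongest was chr19:43391584-43392386, with 52 in control, 59 in WIN and 18 in WIN+cocaine. It was followed by chr1:184206985-184207325, with 43, 45 and 18 in cocaine, and chr2:61548355-61548663, with 35, 33 and 18 in cocaine. In all 2664 regions of control, WIN and cocaine the cocaine score had a median of 28 and a range of 15 to 82, and in the 2507 of control, WIN and WIN+cocaine the WIN+cocaine score had a median of 28 and a range of 15 to 113.

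The regions were scattered over the genome. They lay on chromosomes 1 to 20, X and Y, from 33 on chromosome 12 to 193 on chromosome 2, with 39 on X and 1 on Y. Among the regions of control and WIN on a chromosome, the share missing from both cocaine-treated libraries was highest on chromosome 10, at 4.67% (82 of 1755, Wilson interval 3.78% to 5.76%), and lowest on chromosome 14, at 2.13% (54 of 2539, interval 1.63% to 2.77%), leaving Y aside for its 7 regions. The opposite kind took 6.81% of the cocaine and WIN+cocaine regions on chromosome 10 and 6.09% on chromosome 14, so those 2 chromosomes stood near each other there. Its own highest share was on X, at 8.78%, where the control and WIN share was 3.06%. Neighbouring regions are not independent, and these extremes were picked among 21 chromosomes.

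**Figure D5:**
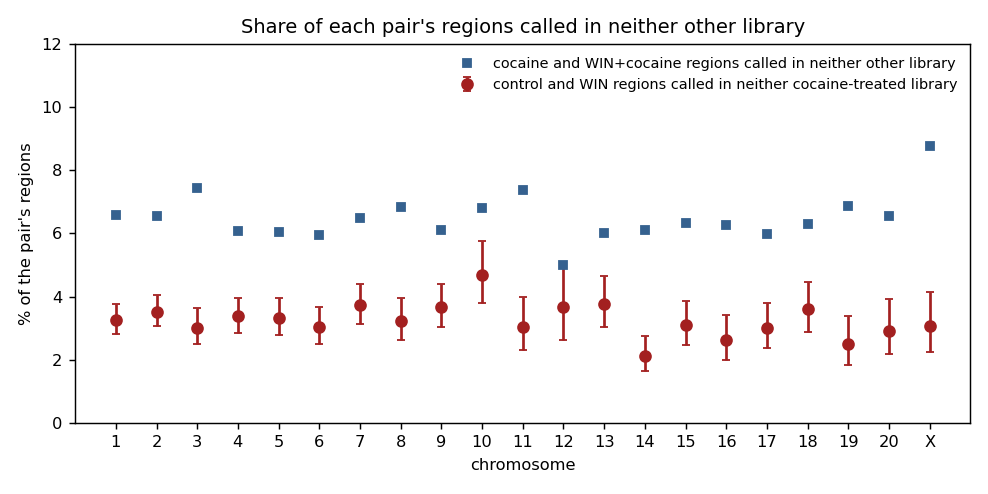
Share of the regions of control and WIN that neither cocaine-treated library called (red, with 95% Wilson intervals for counting error) and share of the regions of cocaine and WIN+cocaine that neither other library called (blue), in percent, by chromosome; Y is left out. The red share is highest on chromosome 10 (4.67%) and lowest on chromosome 14 (2.13%).

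The set seldom formed local groups. The median distance from one such region to the next was 420719 bp, and 33 of 1855 (1.78%) had another within 10 kb, against 1.78% to 2.60% in the mixed pairs and 3.55% in the larger opposite kind. Groups of at least 3 within 50000 bp numbered 4 and held 12 regions, against 2 to 4 groups in the mixed pairs and 23 groups with 72 regions in the opposite kind. The tightest spanned 11876 bp on chromosome 7, with chr7:124786997-124787294 at 32 in control and 40 in WIN, chr7:124794089-124794368 at 23 and 21, and chr7:124798516-124798872 at 25 and 22. It held 5 active regions, of which the other 2 were called only in cocaine-treated libraries, so both kinds of region lay there side by side. The next spanned 40622 bp on chromosome 17 and held no other active region: chr17:36525137-36525402 had 19 and 23, chr17:36542944-36543206 had 17 and 22, and chr17:36565321-36565758 had 28 and 34. The third spanned 45167 bp on chromosome 1 with 7 active regions, 3 of them called in all 4 libraries; its 3 regions were chr1:13866857-13867308 at 32 and 21, chr1:13898454-13898784 at 27 and 24, and chr1:13911792-13912023 at 31 and 33.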

How the data were processed

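The authors deposited, for 4 prefrontal cortex ATAC libraries, a track of peak intervals and a track of summits with a score each, and 1 track of active regions that merges them. The tools named for the series, per the submitters' processing notes, include BWA and MACS2 (2.1.0), with no role stated. The sources used here do not give the build, duplicate handling, transposase shift or how the scores were scaled. An interval wider or narrower by the caller's settings can enter or leave a region, and a threshold turns a graded signal into presence or absence. Libraries were matched to samples by track name. Each interval was assigned to the active region it overlaps by at least 1 bp; all summits lay inside their interval. The highest score per library stood for a region. Starts were raised by 1. No test was run, since each treatment has 1 library. Assignment and distances were tested on simulated data (Python 3.11.15, pandas 2.3.3, scipy 1.17.1). Regions named are the 12 with the highest lower score, the 3 tightest groups, the nearest to and farthest from cocaine-treated intervals, and 3 just outside the rule; others are said to be chosen after their values were seen, as were the extremes by score, width and chromosome and the comparison of distance to shared regions. The regions and rules were chosen with earlier results of these data known. The deposited RNA table was not used here.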

Additional observations from a re-analysis of the deposited data

How the results depend on the processing

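The 1855 regions became 2884 with equal numbers of intervals, 1037 with a score of at least 30 required of every call in all 4 libraries, and 349 with that score required of control and WIN only. Of the 1131 regions gained with equal numbers, all held a cocaine-treated interval under the new limit, so this gain follows from the construction. The fall to 349 does too. The 1037 are these 349 together with regions whose cocaine-treated intervals all scored under 30, so they are not a stricter part of the 1855. The ratio of cocaine and WIN+cocaine regions to control and WIN regions, 2.19, reversed to 0.957 with equal numbers. It rose to 3.38 with a score of at least 30 in all libraries, and the cause of this was not tested. It was 2.35 with no interval of the other 2 libraries within 1000 bp. That limit removed 15.3% of the regions of control and WIN alone and 8.78% of the opposite kind, so the higher ratio follows from these shares. Medians moved to 24 in control and 24 in WIN without the regions within 1000 bp of a cocaine-treated interval, which are the stronger ones, and to 346 bp in width with equal numbers. Joining control and WIN intervals directly, without the active regions (1961), joining control and WIN intervals that share 50% of their length both ways, again without the active regions (1665), the 1000 bp limit (1572) and numbered chromosomes (1815) left the count within 1.5-fold. No paired analysis was possible because the ATAC libraries carry no shared replicate numbers and the counts of calls come from no test; a contrast of the 2 cocaine-treated with the 2 other libraries is the one that chose the regions and was not tested. Depth is unknown, so weak regions cannot be told from missed calls.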
